A study of Mus musculus with 2 samples.

Results

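Glycolysis splits glucose to pyruvate, and gluconeogenesis runs back from lactate, glycerol and amino acids to free glucose. Most steps are shared and reversible, and the direction is set by a few steps that differ between both routes: hexokinase, phosphofructokinase and pyruvate kinase on the way down, and pyruvate carboxylase, phosphoenolpyruvate carboxykinase, fructose-1,6-bisphosphatase and glucose-6-phosphatase on the way up. In the mature kidney the proximal tubule makes glucose and burns fatty acids, whereas the loop of Henle, the distal tubule and the collecting duct use glucose. Glycolysis is also known as a main fuel route of nephron progenitors. The 37 genes described here encode the glucose transporters, the enzymes of both routes, the enzymes that set the level of fructose 2,6-bisphosphate, the kinases that shut pyruvate dehydrogenase and the lactate transporters. They were taken by symbol from the 32285 features of each count table. The list was chosen with earlier results of these data known. All 37 were found in both libraries, in 38 features, because Aldoa is listed in 2 features, which were summed.

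Nuclei of whole mouse kidneys were profiled by droplet 3′ single-nucleus RNA-seq in 1 library at embryonic day E18.5 and 1 library at postnatal day P3. The E18.5 kidneys carried loxP-flanked alleles of Myc and Mycn without a Cre recombinase (Mycf/f;Mycnf/f) on a mixed background. The P3 kidneys were wild type and C57BL/6J by the labels, whereas a mixed background is stated for both ages in the methods of the study. Each library pooled kidneys of male and female animals, which were snap-frozen, so the spread between animals was not measured. Age, genotype, strain and library changed together and cannot be told apart in any comparison of both ages. By the headers of the count tables, though not by the labels, the release of the counting software (Cell Ranger) changed with them. The part of that release in the age ratios was not tested.

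After quality limits 21270 nuclei remained at E18.5 (median 3132.5 unique molecular identifiers, UMIs, per nucleus) and 11765 at P3 (median 4534 UMIs), from 77321253 and 70055219 UMIs. Both numbers of nuclei were above those the study states. A level is the UMIs of a gene summed over the nuclei of a class, divided by all UMIs of that class and scaled to a total of 1000000 (CPM), with an exact Poisson 95% interval. A ratio of CPM has an exact conditional binomial 95% interval. Both kinds of interval hold counting error and nothing of the spread between animals, and no p-value was computed, because each age had 1 library. A member is called higher or lower at a ratio of at least 2 or at most 0.5 with at least 20 UMIs over both sets. Clusters were formed without the 37 genes and without other genes of metabolism, and named "-like" from markers. Clusters that held 28.5% of the nuclei at E18.5 and 31.4% at P3 had no clear name and were left out of the classes. Their nuclei stayed in the reference wherever a class was set against all other nuclei. Ribosomal protein genes took 4.78% of UMIs at E18.5 and 1.12% at P3, which moves with every comparison of both ages below. Its part in them was not tested. An alternative scaling given with those comparisons changes all ratios of a class by the same factor and cannot test it. The libraries shared 69 barcode sequences.

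The proximal tubule is the tissue on which most of the results turn. At E18.5, 1249 nuclei of 1 cluster were maturing proximal tubule-like, with 14 of 18 markers raised at least 2-fold. Slc34a1, the phosphate transporter of the proximal brush border, stood at 1970 CPM in them and at 163 CPM in all other nuclei. At P3, 1298 nuclei of 2 clusters carried this name, with Slc34a1 at 4065 CPM against 512 CPM elsewhere. The nuclei elsewhere included an unnamed cluster of 802, mostly called doublets, that had Slc34a1 among its leading genes. The early end of the lineage was set by 2878 nephron progenitor-like nuclei at E18.5. At P3 no cluster was nephron progenitor-like, and 931 committing nephron-like nuclei took that place. The early ends of both ages are therefore not the same class. Nuclei named immature proximal tubule-like (1003 at E18.5 and 242 at P3) were set between them. This name rests on few markers: 3 of 10 were raised at E18.5 and 4 of 10 at P3, led by Cdh6 at 2221 and 2402 CPM, whereas Cubn and Dab2 at both ages and Hnf4a and Lrp2 at P3 were below the level of all other nuclei. At E18.5 the highest score of this cluster was for the committing nephron (0.927 against 0.918). The proximal tubule-like class held more UMIs of loop of Henle markers than the early class, at a summed 726 against 294 CPM at E18.5 and 1024 against 555 CPM at P3, while the loop of Henle-like nuclei themselves held 16413 and 17853 CPM. The marker list includes Cldn10, which at P3 was lower in loop of Henle-like (176 CPM) than in all other nuclei (216 CPM). The part of the loop of Henle marker UMIs in the results was not tested.

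The start regions of 5 members are shown because these genes carry the main patterns: the first 4 are high in the proximal tubule-like nuclei, and Pgk1, a glycolytic enzyme, is lower at P3 in every class compared. Each run holds the 250 bases before the annotated start in GRCm38.p6 (RefSeq), read 5′ to 3′ on the strand of the gene. Capitals mark a match of 1 of the 6 motifs searched on both strands.
Pck1: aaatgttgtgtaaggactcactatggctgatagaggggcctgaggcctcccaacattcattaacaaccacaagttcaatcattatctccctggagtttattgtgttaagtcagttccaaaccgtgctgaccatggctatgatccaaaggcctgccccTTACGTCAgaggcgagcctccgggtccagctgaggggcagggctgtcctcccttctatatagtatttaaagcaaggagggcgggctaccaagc
G6pc: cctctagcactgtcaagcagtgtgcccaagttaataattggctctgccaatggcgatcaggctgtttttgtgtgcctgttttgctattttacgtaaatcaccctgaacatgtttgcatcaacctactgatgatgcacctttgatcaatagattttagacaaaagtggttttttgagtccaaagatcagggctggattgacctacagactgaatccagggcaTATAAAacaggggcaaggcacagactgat
Fbp1: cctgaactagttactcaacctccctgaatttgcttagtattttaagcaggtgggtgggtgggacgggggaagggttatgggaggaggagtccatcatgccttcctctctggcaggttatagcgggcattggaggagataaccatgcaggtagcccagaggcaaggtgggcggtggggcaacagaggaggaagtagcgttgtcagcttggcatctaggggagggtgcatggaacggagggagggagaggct
Slc2a2: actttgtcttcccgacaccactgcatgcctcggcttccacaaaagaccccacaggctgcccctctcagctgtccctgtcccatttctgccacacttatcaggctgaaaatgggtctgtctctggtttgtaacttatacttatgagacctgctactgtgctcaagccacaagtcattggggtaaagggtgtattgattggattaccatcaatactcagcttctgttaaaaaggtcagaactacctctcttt
Pgk1: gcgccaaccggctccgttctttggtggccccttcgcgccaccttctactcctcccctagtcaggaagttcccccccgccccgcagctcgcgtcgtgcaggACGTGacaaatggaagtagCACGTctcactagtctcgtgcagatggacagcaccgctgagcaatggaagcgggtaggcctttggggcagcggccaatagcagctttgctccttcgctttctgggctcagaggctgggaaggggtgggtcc
The Pck1 run lies on the plus strand at chr2:173152823-173153072. It holds TTACGTCA, a variant of the cyclic AMP response element, at base -93. The G6pc run (chr11:101367466-101367715, plus strand) holds TATAAA, the TATA box, at base -29. The Pgk1 run (chrX:106186850-106187099, plus strand) holds ACGTG, the core of the hypoxia response element, at bases -150 and -131. None of the 6 motifs was found in the runs of Fbp1 (chr13:62888283-62888532, minus strand) and Slc2a2 (chr3:28697653-28697902, plus strand), which says only that these letters are not there. Over windows of 250 bases before to 50 after the start, TTACGTCA was in 0.499% of all 32851 RefSeq promoters, TATAAA in 13.6% and ACGTG in 19.6%. The other motifs searched were TGACGTCA, the full cyclic AMP response element (1.79%), CAAAGTCCA for HNF4 (0.475%) and the E box CACGTG (7.15%), which contains ACGTG. Promoters were found for 36 of the 37 members (56 promoters in all), and 22 of the 56 promoters, of 18 genes, held ACGTG and 7 held CACGTG. A match is a description of letters, not of binding.

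The first comparison asked how the members differ between the early nephron and the proximal tubule within each library. At E18.5, 10 of the 36 members with enough UMIs were higher in maturing proximal tubule-like than in nephron progenitor-like nuclei and 6 were lower, against 13.3% and 18.0% of all 15963 genes tested. At P3, against committing nephron-like nuclei, 15 of 35 were higher and 8 lower, against 17.4% and 25.3% of 15417 genes. The median log2 ratio was 0.03 over the members and -0.25 over all genes tested at E18.5, and 0.60 and -0.31 at P3. Higher at both ages were Slc2a2, Pfkp, Pfkfb3, Pklr, Pdk4, Pck1, Fbp1, Fbp2, G6pc and Pcx, and at P3 also Gpi1, Pfkfb4, Tpi1, Eno1 and Ldhb. Lower at both ages were Slc2a3, Hk1, Hk2, Pfkfb1 and Slc16a3, with Slc16a1 at E18.5 only and Eno2, Pkm and Pck2 at P3 only. The 8 lower members at P3 were 4 after each nucleus was thinned to 1000 UMIs and 5 with a minimum of 100 UMIs.

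**Figure D1:**
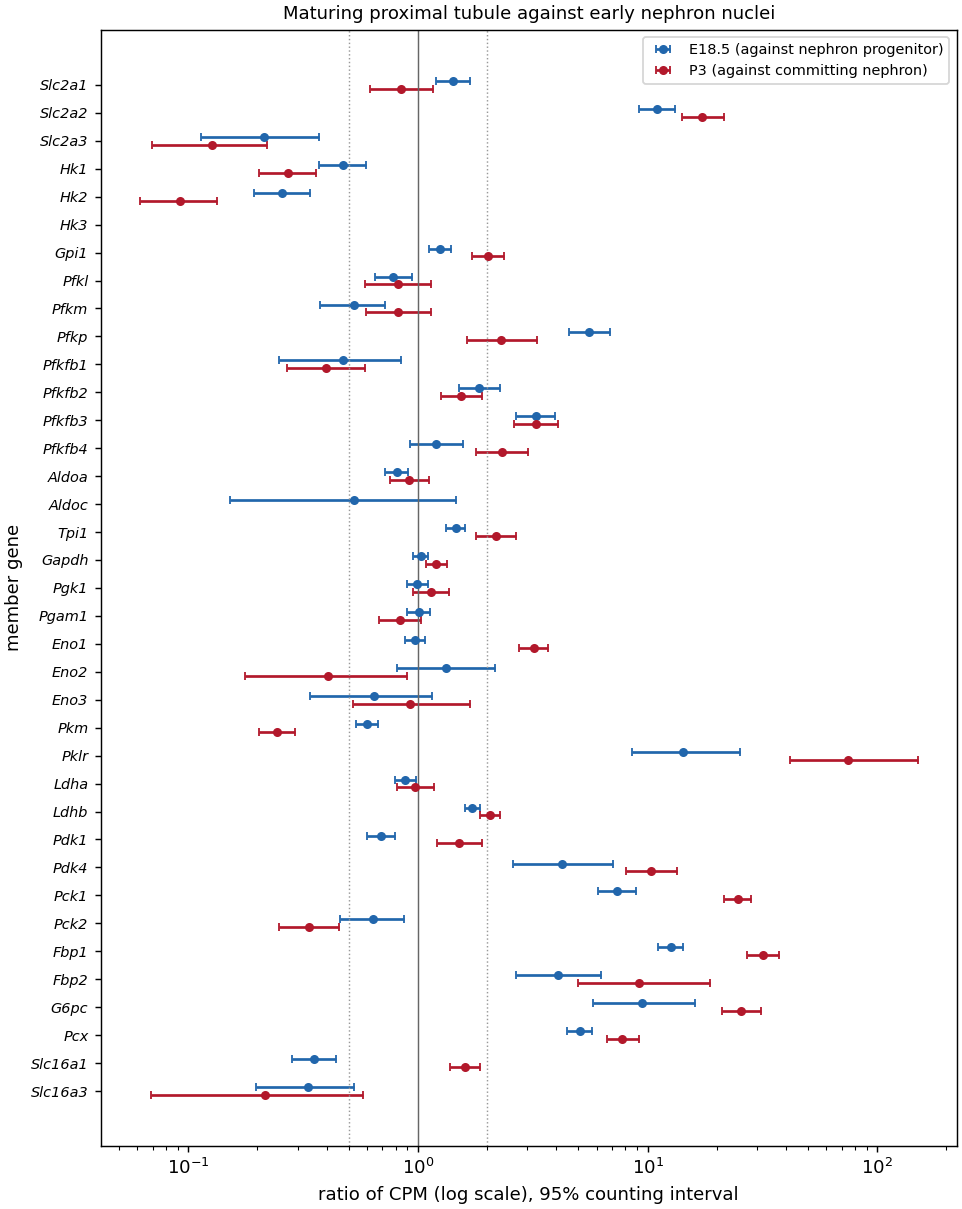
Ratio of CPM in maturing proximal tubule-like nuclei to CPM in nephron progenitor-like (E18.5) or committing nephron-like (P3) nuclei for each of the 37 members, on a log axis, grouped by role, with exact 95% counting intervals and dotted lines at 0.5 and 2; members under 20 UMIs have no point. Pklr lies farthest to the right, at 14.2 and 74.8, and Hk2 at P3 farthest to the left, at 0.0918.

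Of the 6 gluconeogenic members, 5 were higher at both ages. Pck1, the cytosolic phosphoenolpyruvate carboxykinase that turns oxaloacetate into phosphoenolpyruvate, stood at 109 CPM in proximal tubule-like nuclei of the E18.5 library and at 14.8 CPM in its progenitor-like nuclei, a 7.35-fold difference (interval 6.11 to 8.88). At P3 Pck1 stood at 1071 and 43.3 CPM, a 24.7-fold difference (21.6 to 28.3). Fbp1, fructose-1,6-bisphosphatase, stood at 379 and 30.0 CPM at E18.5 (12.6-fold, 11.1 to 14.3) and at 983 and 31.0 CPM at P3 (31.7-fold, 27.1 to 37.3). The early level of Fbp1 was thus nearly the same in both libraries, and the proximal level was not. G6pc, the catalytic subunit of glucose-6-phosphatase that releases free glucose, stood at 19.2 and 2.04 CPM at E18.5 (9.45-fold, 5.80 to 16.1) and at 538 and 21.1 CPM at P3 (25.5-fold, 21.1 to 31.2). Pcx, pyruvate carboxylase, which feeds the route from pyruvate in mitochondria, stood at 173 and 34.2 CPM at E18.5 (5.06-fold, 4.46 to 5.75) and at 249 and 32.0 CPM at P3 (7.77-fold, 6.63 to 9.16). Fbp2, the muscle form of the bisphosphatase, was sparse but followed the same direction, at 14.0 against 3.46 CPM and 19.7 against 2.15 CPM.

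Pck2, the mitochondrial carboxykinase, went the other way. It stood at 10.4 CPM in proximal tubule-like and 16.3 CPM in progenitor-like nuclei at E18.5, which was not called, and was 2.97-fold lower (2.21 to 4.02) at P3, at 8.28 against 24.6 CPM. Of the UMIs of Pck1 and Pck2 together, Pck1 took 47.5% (41.8 to 53.3, exact binomial) in progenitor-like and 91.3% (88.8 to 93.4) in proximal tubule-like nuclei at E18.5, and 63.8% (58.5 to 68.8) and 99.2% (99.0 to 99.4) at P3. Such a share compares nuclei with each other and not the levels of both genes, which can be counted with unequal efficiency. Summed over the 6 genes, the ratio of proximal tubule-like to early nuclei was 6.98 at E18.5 (6.51 to 7.50) and 18.6 at P3 (17.3 to 19.99). The 6 genes took 5.9% of all member UMIs in progenitor-like and 27.7% in proximal tubule-like nuclei at E18.5, and 15.3% and 62.8% in the early and proximal nuclei at P3.

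With the immature class as named here, the gluconeogenic sum differed between the immature and the maturing nuclei more than between the early and the immature ones. Between the early and the immature class, the gluconeogenic sum differed by a ratio of 0.957 at E18.5 (0.844 to 1.08) and 1.14 at P3 (0.982 to 1.32). Between the immature and the maturing class it was 7.30 (6.53 to 8.17) and 16.3 (14.3 to 18.6). The class itself depended on the processing. At E18.5 no cluster carried the name with 20 neighbors or without the naming rules added later, and 1850 nuclei did when doublets were removed before clustering. Without the later rules the P3 class held 516 nuclei, cluster 11 described below among them, and both steps were then of like size, at 4.95 (4.57 to 5.37) and 4.41 (4.24 to 4.60). Fbp1, for example, stood at 28.7 CPM in immature and 379 CPM in maturing proximal tubule-like nuclei at E18.5, and at 33.4 and 983 CPM at P3. Of all members, 2 were higher in the immature than in the early class at E18.5 (Pfkp and Pklr) and 3 lower (Slc2a3, Pdk1 and Slc16a1) of 36, against 7.43% and 6.25% of all genes. At P3, 6 were higher (Slc2a2, Pfkp, Eno2, Pklr, Pdk4 and Fbp2) and 4 lower (Hk1, Hk2, Pkm and Slc16a1) of 34, against 9.20% and 10.8%. From the immature to the maturing class, 9 of 35 were higher and 3 lower at E18.5 (9.32% and 12.5% of all genes), and 10 of 34 were higher and 5 lower at P3 (12.4% and 16.4%). Pklr, Pfkp and Slc16a1 therefore differed from the early class in immature nuclei at both ages, where Pck1, Fbp1, G6pc and Pcx were within 2-fold. At P3 the immature class was not a step toward the maturing one for each of them. Slc16a1, lower in immature nuclei, stood at 75.1 CPM in maturing against 46.7 CPM in early nuclei. Pfkp was called higher than in all other nuclei in the immature but not in the maturing class.

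**Figure D2:**
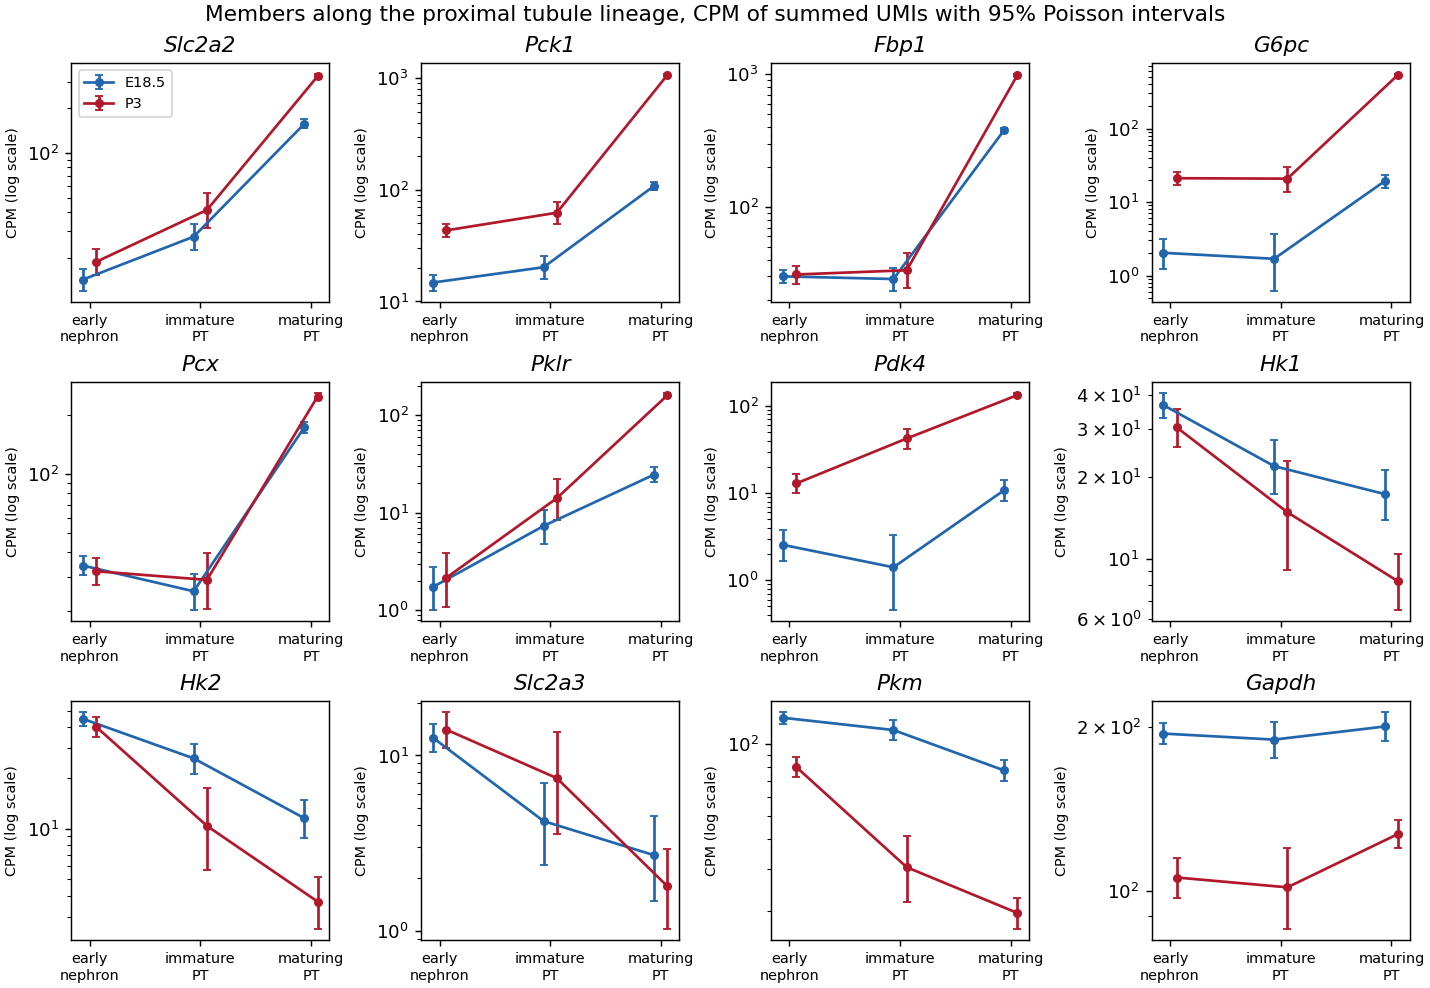
CPM of 12 members in the early, immature proximal tubule-like and maturing proximal tubule-like classes at E18.5 and P3, with exact 95% Poisson intervals. Pck1, Fbp1 and G6pc stay low in the immature class and are high in the maturing class, while Hk1 and Hk2 go down along the lineage.

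The glucose transporters split by member. Slc2a2 (GLUT2), which lets glucose out across the basolateral membrane of the proximal tubule, stood at 156 CPM in proximal tubule-like and 14.3 CPM in progenitor-like nuclei at E18.5 (10.97-fold, 9.16 to 13.2). At P3 it stood at 325 and 18.7 CPM (17.3-fold, 14.2 to 21.5). Slc2a1 (GLUT1), the widespread basal transporter, was within 2-fold at both ages, at 47.5 against 33.4 CPM and 11.7 against 13.9 CPM. Slc2a3 (GLUT3), a high-affinity form, was 4.69-fold lower (2.69 to 8.83) at E18.5 and 7.85-fold lower (4.52 to 14.5) at P3 in proximal tubule-like nuclei. Its own level there was 2.69 and 1.79 CPM, from 14 and 16 UMIs.

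The hexokinases, which trap glucose in the cell as its 6-phosphate, were lower in proximal tubule-like nuclei at both ages. Hk1, the constitutive form, stood at 17.3 against 36.8 CPM at E18.5, 2.12-fold lower (1.68 to 2.71), and at 8.28 against 30.5 CPM at P3, 3.68-fold lower (2.77 to 4.92). Hk2, the inducible form, stood at 11.5 against 44.9 CPM at E18.5, 3.89-fold lower (2.97 to 5.18), and at 3.69 against 40.2 CPM at P3, 10.9-fold lower (7.52 to 16.2). Hk3 had 1 and 3 UMIs at E18.5 and 6 and 1 at P3 in these classes and was not compared. The members that phosphorylate glucose and those that release it thus differed in opposite directions within the same nuclei.

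Among the phosphofructokinases, the committing enzymes of glycolysis, Pfkp was higher and Pfkl and Pfkm were within 2-fold. Pfkp stood at 70.8 against 12.7 CPM at E18.5 (5.56-fold, 4.53 to 6.87) and at 18.9 against 8.20 CPM at P3 (2.31-fold, 1.64 to 3.31). Of the bifunctional enzymes, which make or remove the activator fructose 2,6-bisphosphate, Pfkfb3 was 3.25-fold higher at both ages, at 56.0 against 17.2 CPM (2.68 to 3.96) and 62.9 against 19.3 CPM (2.62 to 4.07). Pfkfb1 was lower at both ages, by 2.12-fold (1.19 to 4.01) and 2.50-fold (1.69 to 3.73), from 15 and 46 proximal UMIs. Pfkfb2 was within 2-fold at both ages, and Pfkfb4 was called at P3 only, at 34.3 against 14.8 CPM (2.31-fold, 1.80 to 3.02), beside 18.3 against 15.2 CPM at E18.5. The difference between both ages was not tested for any member.

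The 10 members of the reversible steps, which carry carbon in either direction, differed little at E18.5 and more at P3. At E18.5 none of the 10 was called, against 13.3% of all genes higher and 18.0% lower. Their ratios lay between 0.525 (Aldoc) and 1.46 (Tpi1), and their sum differed by a ratio of 1.06 (1.02 to 1.10). At P3, 3 of 9 were higher and 1 lower, against 17.4% and 25.3% of all genes, and the sum ratio was 1.56 (1.47 to 1.65). Eno1, the main enolase, stood at 140 against 43.9 CPM at P3 (3.19-fold, 2.77 to 3.69) and at 107 against 111 CPM at E18.5. Tpi1, triosephosphate isomerase, was 2.18-fold higher (1.80 to 2.67) and Gpi1, glucose-6-phosphate isomerase, 2.02-fold higher (1.72 to 2.38) at P3, whereas Eno2, the neuronal enolase, was 2.47-fold lower (1.11 to 5.67) from 12 and 17 UMIs. Gapdh, often used as a reference gene, stood at 200 against 194 CPM at E18.5 and 127 against 106 CPM at P3. The sum at E18.5 turned to the other side of 1, to 0.936, when a proximal tubule-like cluster of 473 nuclei, mostly called doublets, was added.

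At the pyruvate end the liver-type and the muscle-type kinase differed in opposite directions. Pklr, the liver and red cell pyruvate kinase, stood at 24.6 against 1.73 CPM at E18.5 (14.2-fold, 8.54 to 25.2) and at 161 against 2.15 CPM at P3 (74.8-fold, 41.7 to 150), with 17 and 11 UMIs in the early classes. Pkm, the form of most growing tissues, stood at 77.5 against 129 CPM at E18.5 and was 4.10-fold lower (3.43 to 4.92) at P3, at 19.6 against 80.2 CPM. Of the UMIs of Pklr and Pkm together, Pklr took 1.3% (0.8 to 2.1) in progenitor-like, 6.0% (4.0 to 8.7) in immature and 24.1% (20.5 to 27.98) in maturing proximal tubule-like nuclei at E18.5. The shares at P3 were 2.6% (1.3 to 4.6), 31.7% (20.3 to 45.0) and 89.1% (87.5 to 90.6). The order of the 3 classes was the same in both libraries, with intervals that did not overlap between neighbours.

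Pdk4, a kinase that shuts pyruvate dehydrogenase and so spares pyruvate, stood at 10.8 against 2.55 CPM at E18.5 (4.23-fold, 2.60 to 7.08) and at 133 against 12.9 CPM at P3 (10.3-fold, 8.06 to 13.4). Ldhb, the lactate dehydrogenase form common in oxidative tissue, stood at 248 against 144 CPM at E18.5 and was 2.06-fold higher (1.87 to 2.27) at P3, at 210 against 102 CPM. Ldha, the form common in glycolytic tissue, was within 2-fold at both ages (ratios 0.882 and 0.970). Slc16a3 (MCT4), a lactate exporter, was lower at both ages but rested on 21 and 6 proximal UMIs. Slc16a1 (MCT1), the widespread lactate transporter, was 2.83-fold lower (2.28 to 3.54) at E18.5, at 19.2 against 54.5 CPM, and stood at 75.1 against 46.7 CPM at P3. Pdk1 was within 2-fold at both ages.

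The share of nuclei with at least 1 UMI followed the levels. After each nucleus was thinned to 1000 UMIs, Pck1 was found in 9.64% of maturing proximal tubule-like and 1.78% of progenitor-like nuclei at E18.5 (25.2% and 4.90% unthinned, median depths 3794 and 3155 UMIs). At P3 it was found in 56.4% of maturing proximal tubule-like, 6.20% of immature proximal tubule-like and 5.57% of stroma-like nuclei (88.5%, 22.3% and 19.1% unthinned, median depths 6092.5, 4970.5 and 4038 UMIs). The stroma-like share is given for comparison only, and free RNA was not estimated. Thinned shares for G6pc at P3 were 28.5% in maturing proximal tubule-like, 2.07% in immature proximal tubule-like and 2.67% in stroma-like nuclei (59.8%, 9.92% and 8.83% unthinned). The immature share was thus near the stroma-like share for G6pc, and within the counting interval of it for Pck1.

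Across all classes, the class that led for the most members was leukocyte-like at E18.5 (12 members) and maturing proximal tubule-like at P3 (11 members). Urothelium-like nuclei (71) led for 6 members at P3, as many as leukocyte-like nuclei, and intercalated cell-like nuclei (69) for 5. Of the members led by urothelium-like nuclei, Pck2 had an interval to the next class that excluded 1 (1.11 to 2.64). The intervals of Pfkl, Pfkfb2, Aldoa, Gapdh and Pkm included 1. No share of all genes was set beside these counts. With 15 classes at E18.5 and 14 at P3, maturing proximal tubule-like nuclei led for 8 members at E18.5 (Slc2a2, Tpi1, Pklr, Pck1, Fbp1, Fbp2, G6pc and Pcx). At P3 they led for 11 members, with Pfkfb3, Eno1, Pdk4 and Slc16a1 in addition and Tpi1 no longer among them. Against all other nuclei, 10 members were higher and 6 lower in maturing proximal tubule-like nuclei at E18.5 (9.12% and 21.3% of all genes), and 11 higher and 7 lower at P3 (11.2% and 28.8%). Hk1 and Pkm were lowest in this class of all classes at both ages. Of the members that this class led, the interval of the ratio to the next class included 1 for Tpi1 and G6pc at E18.5 and for Pfkfb3 at P3. Of the 37 members, 13 had the same leading class name in both libraries, and thinning to 1000 UMIs left the leading class in place for 25 at E18.5 and 24 at P3.

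**Figure D3:**
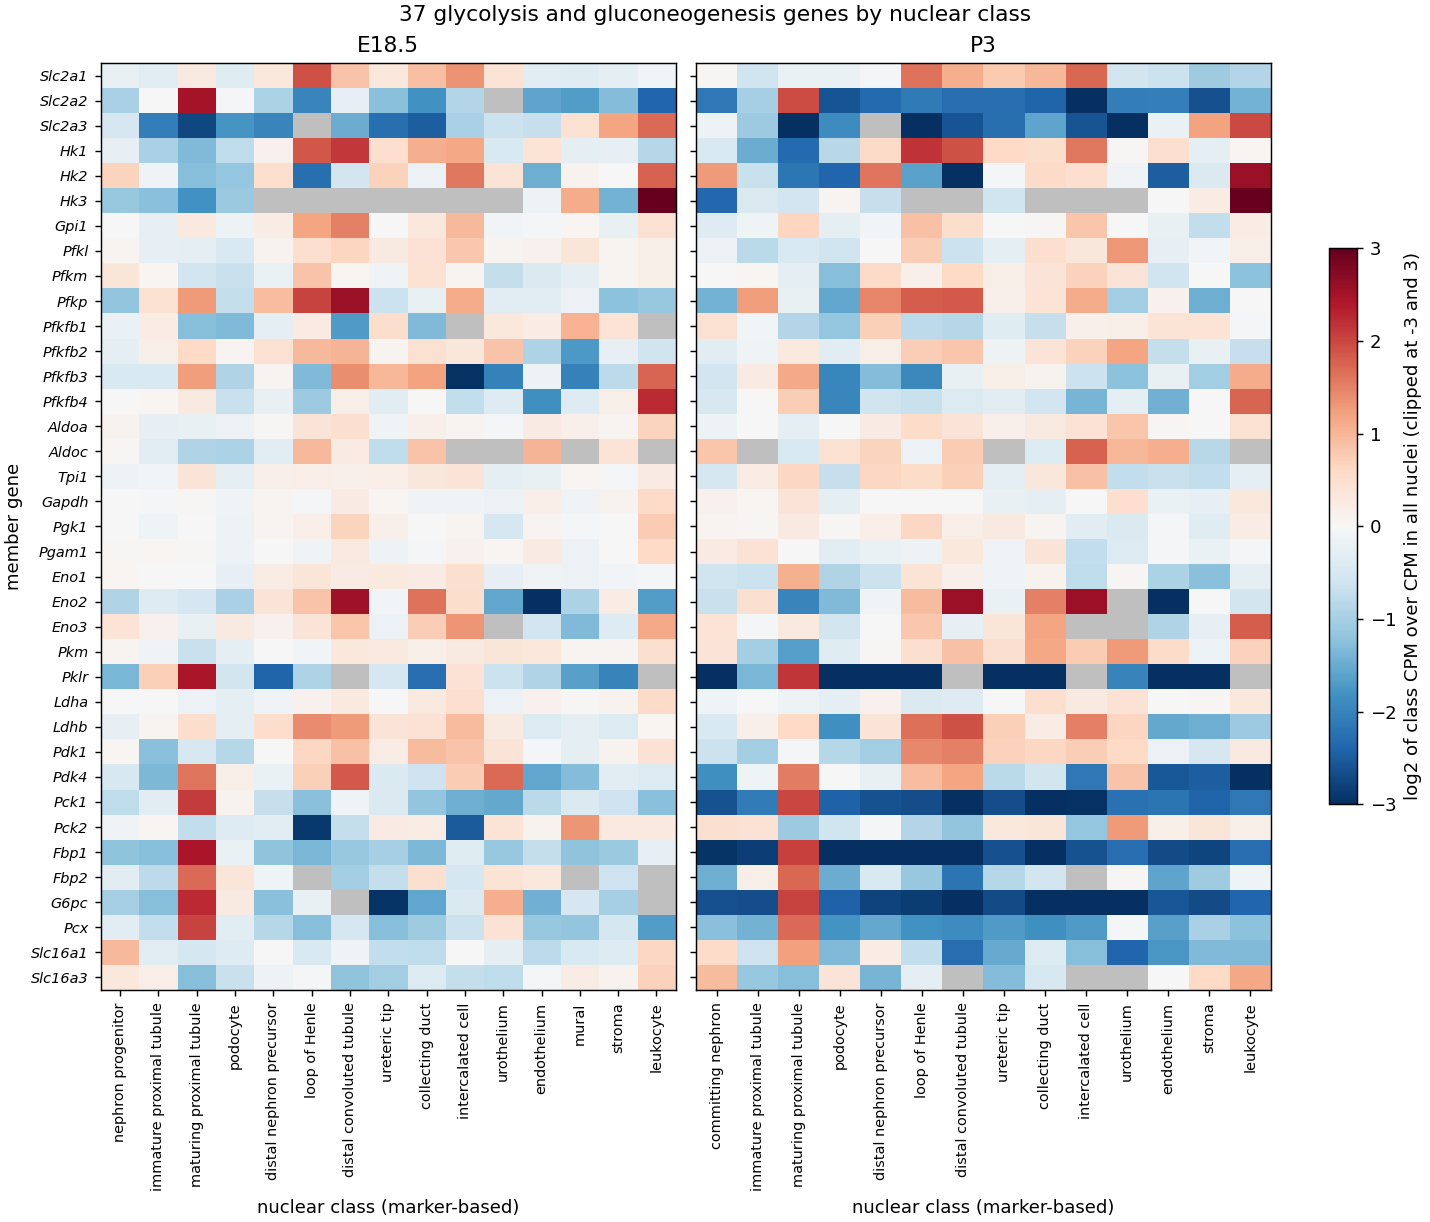
Level of each member (rows, grouped by role) in each named class (columns), as log2 of the class CPM over the CPM in all nuclei of that library, at E18.5 (15 classes) and P3 (14 classes); colours are limited to -3 and 3 and gray marks 0 UMIs. Pck1, Fbp1, G6pc and Pcx stand out in the maturing proximal tubule-like column, and Hk1, Ldhb and Pfkp in the loop of Henle-like and distal convoluted tubule-like columns.

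In the loop of Henle-like nuclei (233 and 296), 5 of 37 members were higher than in all other nuclei and 9 lower at E18.5 (9.11% and 14.2% of all genes), and 5 higher and 10 lower at P3 (8.61% and 17.3%). In the distal convoluted tubule-like nuclei (145 and 130), 8 were higher and 5 lower at E18.5 (10.2% and 14.2%), and 7 higher and 11 lower at P3 (9.49% and 18.4%). Slc2a3 and Fbp1 were lower in both classes at both ages, as in further classes given below, and Hk1, Pfkp and Ldhb were higher in both. Hk1 stood at 159 and 188 CPM in them at E18.5 and at 188 and 158 CPM at P3, against 17.3 and 8.28 CPM in maturing proximal tubule-like nuclei. Ldhb stood at 457 and 416 CPM at E18.5 and 438 and 521 CPM at P3. Pfkp stood at 119 and 175 CPM at E18.5 and 76.9 and 78.2 CPM at P3. Between these classes, Pfkp at E18.5 (1.47-fold, 1.09 to 1.99) and Ldhb at P3 (1.19-fold, 1.05 to 1.35) were higher in the distal convoluted tubule-like nuclei, and the other intervals included 1. Hk2 stood at 5.88 and 19.2 CPM in the loop of Henle-like and distal convoluted tubule-like nuclei at E18.5 and at 5.44 and 1.30 CPM at P3, from 1 to 9 UMIs in each. The distal nuclei at P3 also held Pdk4, at 104 CPM in distal convoluted tubule-like and 87.8 CPM in loop of Henle-like nuclei, next to 133 CPM in maturing proximal tubule-like nuclei. Slc2a3 was also called lower at both ages in ureteric tip-like, collecting duct-like, distal nephron precursor-like, podocyte-like, and immature and maturing proximal tubule-like nuclei. At E18.5 Fbp1 was also called lower in progenitor-like, stroma-like, mural-like, urothelium-like, ureteric tip-like, collecting duct-like, distal nephron precursor-like and immature proximal tubule-like nuclei. Every named class at P3 but the maturing proximal tubule-like one had Slc2a2, Pklr, Pck1, Fbp1 and G6pc called lower, the leukocyte-like class below included. The reference of all other nuclei held the proximal tubule-like nuclei.

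Leukocyte-like nuclei (158 and 193) led for 12 members at E18.5 and 6 at P3, but the interval of the ratio to the next class excluded 1 for only 2 of the 12 (Hk3 and Pfkfb4) and 4 of the 6 (Slc2a3, Hk2, Hk3 and Pfkfb4). Against all other nuclei, 6 of 37 members were higher and 5 lower at E18.5 (12.6% and 13.5% of all genes), and 7 higher and 10 lower at P3 (14.6% and 16.0%). Hk3, the hexokinase of myeloid cells, stood at 66.5 CPM in them at E18.5 and at most 1.44 CPM in any other class, and at 52.7 against at most 1.16 CPM at P3. Hk2 stood at 95.7 CPM at E18.5 (67.0 to 132) and 100 CPM at P3 (75.3 to 130). Slc2a3 stood at 58.5 and 61.8 CPM in leukocyte-like nuclei, followed by stroma-like nuclei at 40.6 and 36.3 CPM. Pfkfb4 stood at 71.8 and 69.1 CPM, next to 18.3 and 34.3 CPM in maturing proximal tubule-like nuclei.

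Outside the proximal tubule Pck1, Fbp1 and G6pc were low in every named class. At P3, Pck1 lay between 30.0 and 60.0 CPM (median 43.5) over the 12 other classes, Fbp1 between 23.8 and 49.1 CPM (median 33.3) and G6pc between 7.64 and 25.4 CPM (median 19.7). At E18.5 over 13 classes Pck1 lay between 8.64 and 27.1 CPM, Fbp1 between 27.0 and 60.8 CPM and G6pc between 0 and 8.64 CPM. The other gluconeogenic members varied more by class, with Pck2 between 2.35 and 43.3 CPM at E18.5 and 7.82 and 42.8 CPM at P3, and Pcx between 13.3 and 57.6 CPM and 20.9 and 73.4 CPM. The ratio of Pck1 to Fbp1 UMIs outside the proximal tubule followed the library, at 0.340 to 0.530 over 7 classes at E18.5 and 1 to 1.77 over 11 classes at P3 with at least 50 UMIs of Pck1, Fbp1 and G6pc together, where maturing proximal tubule-like nuclei stood at 0.287 and 1.09. For G6pc to Fbp1 the ratios were 0.0152 to 0.0812 and 0.156 to 0.821, beside 0.0508 and 0.547 in the proximal nuclei. The lowest of them rested on few G6pc UMIs, 1 in ureteric tip-like nuclei at E18.5 and 5 in urothelium-like nuclei at P3. A shallow unnamed cluster at P3 with a median of 973 UMIs stood at 1.17 and 0.634. The proximal value lay below this range for Pck1 at E18.5 and inside it in the other cases. In 3 classes with fewer UMIs at E18.5 the Pck1 ratio was lower still, at 0.167, 0.182 and 0.273. The other classes with fewer UMIs at E18.5 stood at 0.391 (loop of Henle-like), 0.619 (mural-like) and 0.733 (distal convoluted tubule-like). At P3 the intercalated cell-like nuclei, also with fewer UMIs, stood at 0.867. Immature proximal tubule-like nuclei stood above the quoted ranges, at 0.706 at E18.5 and 1.87 at P3. Whether the low levels outside the proximal tubule come from free RNA was not tested.

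The P3 proximal tubule-like nuclei came from clusters that differed in their members. The larger one (1024 nuclei, cluster 6) had 15 of 18 markers raised and was led by Slc5a12 and Slc34a1. The smaller one (274 nuclei, cluster 11) had 4 of 18 raised and was led by Aadat, Slc7a12 and Slc7a13, the last a transporter of the straight proximal tubule, and its highest score was for the immature class. Median depths were 6073 and 6194 UMIs. In cluster 11, 3 of 32 members were higher and 7 lower than in cluster 6, against 9.21% and 6.57% of 13681 genes.

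G6pc stood at 77.8 CPM in cluster 11 and 672 CPM in cluster 6, an 8.64-fold lower level (7.37 to 10.2). Slc16a1 stood at 13.9 and 92.9 CPM, 6.70-fold lower (4.59 to 10.2). Slc2a2 stood at 79.3 and 397 CPM, 5.01-fold lower (4.27 to 5.91). The output end of the route, glucose-6-phosphatase with GLUT2, thus differed more than Pck1 (458 and 1249 CPM, 2.73-fold lower) and Fbp1 (2.80-fold lower), whose intervals (2.55 to 2.92 and 2.61 to 3.01) did not reach those of G6pc and Slc2a2. Pcx (182 and 268 CPM) and Pdk4 (115 and 138 CPM) were within 2-fold. Pklr was 2.66-fold lower (2.23 to 3.18) in cluster 11, and Eno3 was called lower from 4 and 30 UMIs with an interval that included 1. Higher in cluster 11 were Pfkfb3 at 109 against 49.3 CPM (2.22-fold, 1.87 to 2.64), Hk1 at 16.3 against 5.92 CPM (2.76-fold, 1.69 to 4.47) and Slc2a1 at 19.3 against 9.54 CPM (2.03-fold, 1.33 to 3.06). The sum of the reversible steps was nearly equal, at a ratio of 0.975 (0.908 to 1.05), while the gluconeogenic sum was at 0.343 (0.329 to 0.358). Against the committing nephron-like nuclei, the gluconeogenic sum was at 7.49 in cluster 11 and 21.8 in cluster 6, G6pc at 3.69 and 31.9 and Pck1 at 10.6 and 28.8. Both clusters were formed without the members, but from genes expressed in the same nuclei, so these are descriptions of the clusters.

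The last comparison set P3 against E18.5 within a class. In maturing proximal tubule-like nuclei, 7 of 35 members were higher at P3 and 13 lower, against 6.10% and 16.3% of 15138 genes, and the median log2 ratio was -0.33 over the members and -0.20 over all genes. In stroma-like nuclei, 5 of 37 were higher and 16 lower, against 3.70% and 14.0% of 17283 genes, with a median over all genes of -0.17, and the 5 higher ones were 3 after thinning. With mitochondrial, hemoglobin and ribosomal protein genes left out of the totals, the numbers of members called stayed the same in both classes. This scaling changes all ratios of a class by the same factor, so it could move only members near the limits of a call. The medians over all genes were then -0.25 in proximal tubule-like and -0.23 in stroma-like nuclei. Pklr, Pdk4, Pck1 and G6pc were higher in both classes, Slc2a2, Fbp1 and Slc16a1 in proximal tubule-like and Hk3 in stroma-like nuclei. The lower members of both were Slc2a1, Hk2, Pfkl, Aldoa, Tpi1, Pgk1, Pgam1, Pkm, Ldha and Slc16a3. The stroma-like class was not made up alike at both ages. At E18.5 it held a cluster of 478 nuclei with Nrxn3, Apcdd1, Kcnd2, Adamts17 and Csmd1 among its leading genes. A P3 cluster of 198 nuclei that shared these leading genes had no clear name and was left out. The part of this in the stroma-like ratios was not tested.

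**Figure D4:**
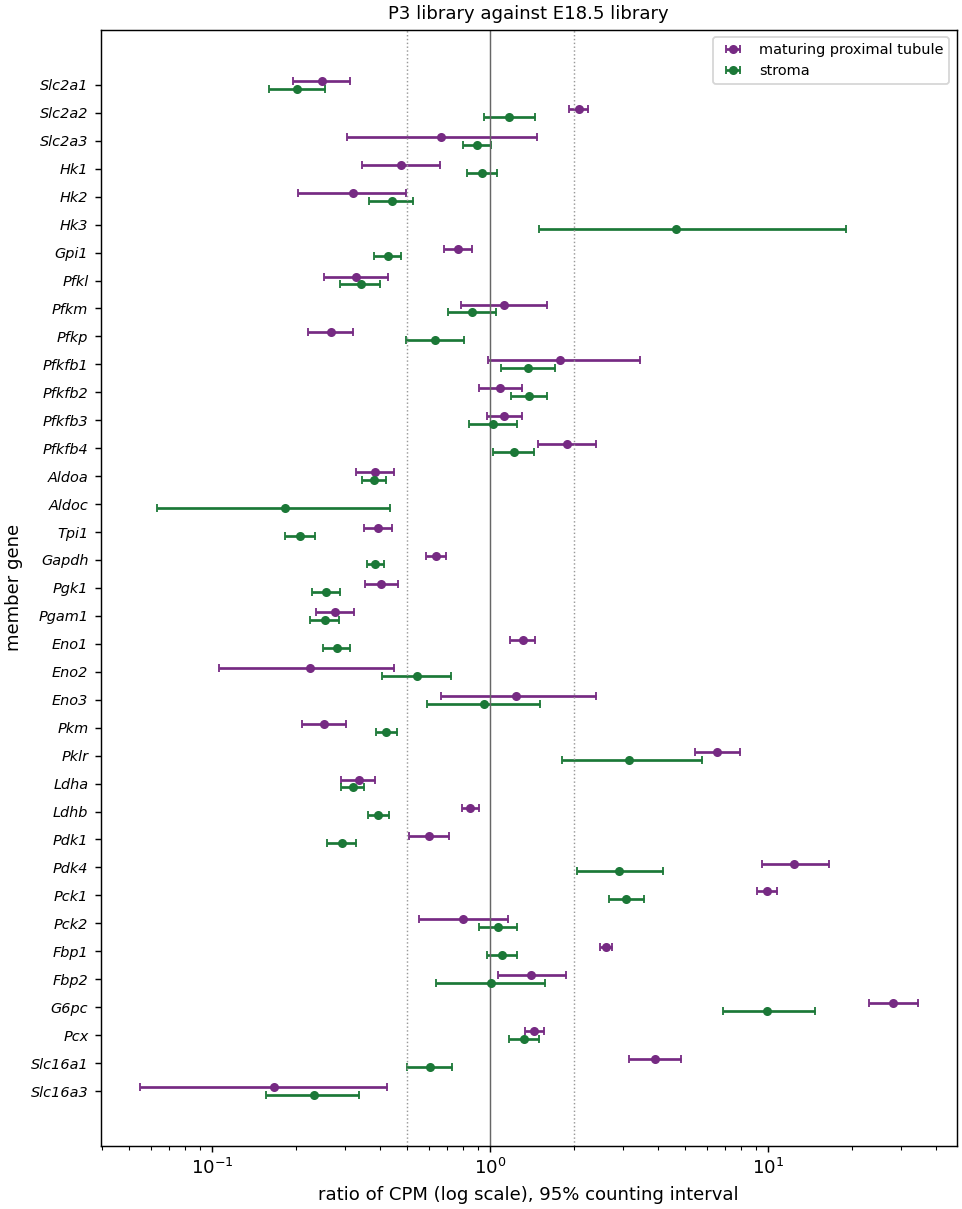
Ratio of CPM at P3 to CPM at E18.5 for each member in maturing proximal tubule-like and stroma-like nuclei, on a log axis, with exact 95% counting intervals and dotted lines at 0.5 and 2; members under 20 UMIs have no point. G6pc lies farthest above 2 in both classes, at 27.96 and 9.90, and the members of the reversible steps lie mostly below 1.

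In maturing proximal tubule-like nuclei G6pc was 27.96-fold higher at P3 (22.9 to 34.4), Pdk4 12.4-fold (9.45 to 16.5) and Pck1 9.87-fold (9.06 to 10.8). Pklr was 6.52-fold (5.44 to 7.88), Slc16a1 3.90-fold (3.16 to 4.86), Fbp1 2.60-fold (2.47 to 2.73) and Slc2a2 2.08-fold higher (1.92 to 2.25). The size of the difference varied among the gluconeogenic enzymes, and Pcx, at a ratio of 1.44 (1.33 to 1.55), and Pck2, at 0.797 (0.553 to 1.15), were within 2-fold. Among the lower members, Slc16a3 was 6.02-fold (2.35 to 18.2), Eno2 4.44-fold (2.22 to 9.50), Slc2a1 4.05-fold (3.21 to 5.13), Pkm 3.96-fold (3.31 to 4.76) and Pfkp 3.75-fold lower (3.11 to 4.52). The others were Pgam1 (3.62-fold), Hk2 (3.13-fold), Pfkl (3.03-fold), Ldha (2.98-fold), Aldoa (2.60-fold), Tpi1 (2.54-fold), Pgk1 (2.47-fold) and Hk1 (2.09-fold lower). Hk1 stood at a ratio of 1.01 when the pathway genes were kept for clustering. With only the smaller P3 cluster in the class, G6pc was 4.04-fold, Pck1 4.22-fold and Pklr 2.86-fold higher, Fbp1 stood at 1.08, and Slc2a2 and Slc16a1 turned to 0.507 and 0.721. Pdk4 stayed at 10.7.

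Of the members, 9 were called lower in at least 8 classes. Over the 13 classes named in both libraries, 13.8% of all pairs of a tested gene and a class were called lower at P3 and 4.57% higher. This is a share of pairs. The share of all genes called lower in at least 8 classes was not computed, so the 9 members have no like share beside them. Here Tpi1, Pgk1 and Pgam1 were called lower at P3 in 13 of 13, Slc2a1, Pfkl and Ldha in 12, Aldoa in 11, and Hk2 and Gapdh in 8. Pgk1, phosphoglycerate kinase, was 2.22- to 4.32-fold lower and Pgam1, phosphoglycerate mutase, 2.56- to 6.34-fold lower by class. Eno1 was the exception in the proximal tubule, at a ratio of 1.31 (1.18 to 1.44) there and below 1 in the 12 other classes. Gapdh, at 0.636 (0.584 to 0.693) in proximal tubule-like nuclei, was 2.59-fold lower (2.42 to 2.77) in stroma-like nuclei. The sum of the reversible steps was at 0.605 (0.580 to 0.630) of its E18.5 level in proximal tubule-like and at 0.324 (0.312 to 0.336) in stroma-like nuclei. Ribosomal protein genes, as abundant housekeeping transcripts, took 4.06 to 6.86% of UMIs by class at E18.5 and 0.768 to 1.80% at P3. The lower glycolytic levels at P3 thus went with a lower share of that group in every class. At E18.5 a shallow unnamed cluster (2795 nuclei, median 1254 UMIs) had a ribosomal share of 13.3% and a reversible-step sum of 1858 CPM. These values were 6.86% and 1090 CPM in leukocyte-like nuclei there. They were 5.61% and 822 CPM in endothelium-like and 5.04% and 1166 CPM in distal convoluted tubule-like nuclei. The part of the ribosomal share was not tested, and the scaling without these genes cannot test it.

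The higher members spread over classes too. Pdk4 was called higher at P3 in all 11 classes where it had enough UMIs, G6pc in all 9 and Pck1 in 10 of 12. Of all pairs of a tested gene and a class, 4.57% were called higher, and the share of all genes called higher in as many classes was not computed. In stroma-like nuclei G6pc stood at 20.4 against 2.06 CPM (9.90-fold, 6.89 to 14.7), Pck1 at 50.3 against 16.4 CPM (3.08-fold, 2.67 to 3.56) and Fbp1 at 35.6 against 32.3 CPM. The level of Pck1 and G6pc relative to Fbp1 thus differed between the libraries outside the proximal tubule as well as in it. The size varied by class for each, from 2.90 (stroma-like) to 30.1 (immature proximal tubule-like) for Pdk4, from 4.94 (podocyte-like) to 38.8 (ureteric tip-like) for G6pc and from 1.28 (distal convoluted tubule-like) to 9.87 (maturing proximal tubule-like) for Pck1. The value of 38.8 rested on 1 G6pc UMI in ureteric tip-like nuclei at E18.5, beside 31 at P3. Slc16a1 was called higher in maturing proximal tubule-like nuclei and in none of the others of the 10 classes where it had enough UMIs.

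Other genes of the pathway were listed beside the 37 members. Of 31 with enough UMIs, 7 were higher and 4 lower in maturing proximal tubule-like than in early nuclei at E18.5 (13.3% and 18.0% of all genes), and 12 higher and 5 lower at P3 (17.4% and 25.3%). Slc5a2 (SGLT2) and Slc5a1 (SGLT1), which take glucose back from the filtrate, were 8.03-fold (5.43 to 12.2) and 31.8-fold higher (21.7 to 48.3) at E18.5 and 28.9-fold (22.2 to 38.5) and 15.98-fold higher (10.9 to 24.4) at P3.

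Of 19 regulators of the pathway with enough UMIs, 8 were higher and 1 lower at E18.5 (13.3% and 18.0% of all genes) and 11 higher and 2 lower at P3 (17.4% and 25.3%). Hnf4a, a nuclear receptor of proximal tubule and liver that was also among the markers of the immature class, stood at 238 against 11.7 CPM and 317 against 8.39 CPM. Ppargc1a, a coactivator of mitochondrial genes, was 7.19-fold higher (6.52 to 7.93) at E18.5. Within the P3 library, Mycn was 12.8-fold lower (9.04 to 18.55) in maturing proximal tubule-like than in committing nephron-like nuclei. Mycn is a driver of growth in progenitors and 1 of the loxP-flanked genes of the E18.5 animals.

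For the neighbouring routes the same shares of all genes apply, 13.3% higher and 18.0% lower at E18.5 and 17.4% and 25.3% at P3. Of 19 fatty acid oxidation genes, 5 were higher at E18.5 and 12 at P3 in maturing proximal tubule-like nuclei, and none was lower. Acsl1, which activates fatty acids, was 6.43-fold (5.53 to 7.51) and 10.4-fold higher (9.12 to 11.98) at E18.5 and P3. Of 16 citric acid cycle genes, none was called at E18.5 and 4 were higher at P3, led by Sdhb at 2.88-fold (2.43 to 3.44). Of 7 pentose phosphate genes, none was called at E18.5, and Pgls was 2.20-fold lower (1.79 to 2.71) at P3. Of 14 genes of the hypoxia response outside glycolysis, 4 were higher and 1 lower at E18.5 and 7 and 1 at P3, led by Ndrg1 at 15.7-fold (14.1 to 17.5) and 21.9-fold (19.0 to 25.5).

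Of the 37 members, 17 overlap another counted gene in the annotation, and 2 of them on the same strand: Pfkm with Gm26513, and Slc16a1 with Gm43581 and Gm43585. Reads in these overlaps could have been assigned to either gene or dropped. Pseudogene copies are annotated by name for Aldoa, Gapdh, Pgk1, Pgam1 and Ldha, so their counts are less certain than those of Pck1, Fbp1 and G6pc. In GRCm38, Pck1 spans chr2:173153048-173159273, Fbp1 chr13:62864753-62888282 and G6pc chr11:101367561-101377903, and no counted gene overlaps any of these 3. These spans are from GENCODE, in which Pck1 and G6pc start upstream of the RefSeq starts. The runs shown for Pck1 and G6pc therefore reach into these spans.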

How the data were processed

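The deposited files held whole-number UMI counts per gene and nucleus, which the authors made with Cell Ranger on mm10. The labels give release 5.0.1 for both libraries, whereas the header of the E18.5 file names 7.0.0, so that release and library cannot be told apart. The headers give no intron setting. The part of the release or of this setting in the ratios of P3 to E18.5 was not tested. No other column of per-sample values was present (0 columns of samples of other series).

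Nuclei whose UMI or gene number fell below the median by over 3 median absolute deviations, or above the mitochondrial limit (at least 0.5 percentage points over the median), were removed: 112 and 218 at E18.5, and 0 and 451 at P3, of 21600 and 12216 barcodes. Of the kept nuclei, Scrublet in scanpy 1.11.5 marked 16.6% and 17.4% as doublets. They stayed in, but clusters with over 50% marked were not named. Counts were normalized by pooled size factors (scran 1.30.0), and 2000 variable genes without the pathway lists gave 50 principal components, a shared nearest neighbor graph of 10 neighbors (bluster 1.12.0) and Walktrap clusters (igraph 2.1.4), 27 at E18.5 and 32 at P3. Named clusters had at least 3 markers raised 2-fold, and classes had at least 50 nuclei. Rules on leading genes in the naming were added after the clusters were seen. The comparison of both ages in nephron progenitors was not run, because no P3 cluster was nephron progenitor-like, and committing nephron-like nuclei replaced them at P3.

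UMIs were summed per class and scaled to CPM in Python 3.11.15 (scipy 1.17.1). The intervals were run on counts simulated with counting error only, which says nothing of the spread between nuclei or animals. The members and gene lists were chosen with earlier results of these data known. All members could be named, with full values for those with at least 100 UMIs in a library and a 2-fold difference in the leading class or along the lineage. Of each other list, up to 4 genes with the largest fold and at least 100 UMIs could be named. Alternatives changed the doublets, clustering, scaling, depth, low counts, fold and naming.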

Additional observations from a re-analysis of the deposited data

Results flagged for a closer look

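Slc16a1 and Pdk1 lay on opposite sides of 1 in both libraries when maturing proximal tubule-like nuclei were set against the early nephron. Slc16a1, the lactate transporter MCT1, had a ratio of 0.353 at E18.5 (interval 0.282 to 0.438) and of 1.61 at P3 (interval 1.39 to 1.87). Pdk1, a kinase that shuts pyruvate dehydrogenase, had a ratio of 0.691 at E18.5 (interval 0.601 to 0.792) and of 1.51 at P3 (interval 1.21 to 1.90). The difference between both ages was not tested, since each age had 1 library, and the early class was nephron progenitor-like at E18.5 and committing nephron-like at P3. In the early class Slc16a1 stood at 54.5 and 46.7 CPM and in the proximal class at 19.2 and 75.1 CPM, so that its levels differed mostly in the proximal class. Within that class at P3 it stood at 92.9 CPM in the larger and 13.9 CPM in the smaller cluster. With only the smaller cluster its ratio at P3 was 0.297, on the same side of 1 as at E18.5. Pdk1 stood at 79.6 and 21.9 CPM in the early class and at 55.0 and 33.1 CPM in the proximal class, so that the early class differed more.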

How the results depend on the processing

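No paired analysis was possible because each age had 1 library, and for the same reason no library could be left out. The gluconeogenic sum in maturing proximal tubule-like against early nuclei (6.98 at E18.5, 18.6 at P3) stayed above 6 at both ages under every alternative run, and above 12 at P3 except with only the smaller P3 cluster. At E18.5 it was 8.50 with doublets removed before clustering, 7.65 with Leiden clustering, 7.59 with 20 neighbors, 8.70 with pathway genes kept for clustering, 6.48 as the mean CPM per nucleus, 6.31 thinned to 1000 UMIs and 6.05 with doublet-rich clusters named. At P3 it was 16.5 as the mean CPM per nucleus, 16.7 thinned, 12.9 with doublet-rich clusters named, 21.8 without the later naming rules, 21.8 with only the larger and 7.49 with only the smaller P3 cluster. The sum of the reversible steps was 1.11 with Leiden and 1.12 with 20 neighbors at E18.5, turned to 0.936 there with doublet-rich clusters named, and at P3 was 1.41 thinned and 1.33 with doublet-rich clusters named. The lower members against early nuclei numbered 11 at 1.5-fold at E18.5 (6 in the report), and 4 thinned, 5 at a minimum of 100 UMIs and 5 with doublet-rich clusters named at P3 (8 in the report). The higher members in stroma-like nuclei at P3 against E18.5 numbered 3 with doublets removed before clustering, 3 thinned and 3 at a minimum of 100 UMIs (5 in the report). Over single members, 1405 values moved by less than their counting interval and 213 by more. A change of side was counted apart only for members called in the report, and was seen for 3 values at P3 against E18.5 in proximal tubule-like nuclei. Hk1 turned to 1.01 with pathway genes kept, and Slc2a2 to 0.507 and Slc16a1 to 0.721 with only the smaller P3 cluster. Members not called could change side without entering the 3. Slc16a1 against early nuclei at P3 did so with only the smaller cluster. The causes were not tested. The alternatives on doublet-rich clusters, later naming rules and single P3 clusters were chosen after seeing the data. The doublet-rich proximal clusters held 473 nuclei at E18.5 and 802 at P3. Slc2a2, Pklr, Pck1, Fbp1 and Pcx were highest in maturing proximal tubule-like nuclei in 11 of 11 settings at both ages, and Pfkfb3 at P3 in 7 and Tpi1 at E18.5 in 8. Over all 37 members, the leading class was the same for 25 at E18.5 and 24 at P3 when thinned, 27 at E18.5 with Leiden clustering and 28 at P3 as the mean CPM per nucleus, and for at least 31 in the other settings. Depth limited Hk3, Aldoc, Eno2, Eno3, Slc2a3 and Slc16a3, which rested on few UMIs in most classes.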
